A study of Mus musculus with 4 samples.

Results

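The Nodal and bone morphogenetic protein (BMP) pathways, with the Id genes, were followed through 10 genes in F123-ESCs, a hybrid mouse embryonic stem cell line. The members were the rows of the deposited expression table with the symbols Nodal, Lefty1, Lefty2, Smad7, Skil, Bmp4, Bmpr1a, Id1, Id2 and Id3, which are 10 of its 24026 genes. They were chosen by name and not by a value, although earlier results of these data were known. F123-ESCs are male and come from a cross of an S129/Jae mother and a Cast father, so every autosomal gene has a maternal S129 copy and a paternal CAST copy. With a single direction of the cross, strain and parent of origin cannot be told apart in a difference between the alleles. All 4 libraries, replicates 1 to 4, are of untreated cells of the S129/CAST genotype, so the comparison within the series is between the 2 alleles of a gene. The cells were grown on inactivated feeder fibroblasts with 15% serum replacement and 1000 U/ml LIF, moved to feeder-free gelatin for at least 2 passages, and harvested after about 48 h. PolyA RNA was sequenced with stranded libraries and paired reads of 150 bp. As this is a single cell line and nothing says that the replicates were separate cultures, p-values measure the spread between these samples, which may be technical.

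Nodal is a secreted ligand of the TGF-beta family that acts through activin receptors and the co-receptor Cripto to phosphorylate SMAD2 and SMAD3. Lefty1 and Lefty2 are secreted antagonists of Nodal and are themselves targets of the pathway, and Smad7 and Skil code for intracellular brakes on SMAD signalling. BMP4 binds receptors that include BMPR1A and acts through SMAD1, SMAD5 and SMAD9, and the Id genes are its classical targets in embryonic stem cells. Id proteins lack a DNA-binding domain and hold E proteins, a class of basic helix-loop-helix factors, off DNA. In mouse embryonic stem cell culture, the BMP and Id axis is known to act with LIF in self-renewal, and Nodal is known as an autocrine signal.

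The values are RPKM, reads scaled by the length of the gene and by the total reads of the allele in that library, given for each allele and library. Only reads that cover a SNP between the strains enter them, so the level of a gene also depends on how many SNPs its transcript carries. Low values rise in steps of 1 read, which gave back the reads behind each value and the total that scales each allele. These totals ran from 16716721 to 28772351 reads per allele and library, with replicate 4 the lowest on both alleles. In replicate 1 they were 28772351 for S129 and 27855621 for CAST, so the scaling enters the difference between the alleles. All 8 genes of the pluripotency list had at least 1 RPKM. Of 10 feeder fibroblast genes, 8 also had at least 1 RPKM, led by Acta2 with 340 RPKM and Col1a2 with 166 RPKM, while Lum lay under 0.1 RPKM. The rest of this list was much lower than those leading genes, from 0.659 RPKM for Dcn to 15.4 RPKM for Postn, with Col1a1 at 5.68 RPKM. Of the lists for other cell types, 3 of 6 primitive endoderm genes, 2 of 5 primitive streak and mesoderm genes and 1 of 4 neural genes (Nes, 76.2 RPKM) reached 1 RPKM. Where a member is also made by such cells, fewer cells of a type and less RNA per cell cannot be told apart in these bulk samples. The strain of the feeders is not given in the sources used here, and any part of feeder RNA in the allele values was not tested.

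Promoter sequences from RefSeq (build GRCm38.p6) were matched by symbol for 5 of the 10 members: Nodal, Bmp4, Bmpr1a, Id2 and Id3. None was matched for Lefty1, Lefty2, Smad7, Skil and Id1. Those of Nodal, of Id2 and of Id3 are shown because they set the ligand beside a target with a clear difference between the alleles and a target near the limit of detection. Each runs 5' to 3' on the strand of its gene through the RefSeq start site. For Id2, Id3 and Bmpr1a the window lies inside the gene interval given below, so this start site is downstream of the first base of that interval. Capitals mark matches to GGCGCC, a GC-rich element known to bind SMAD1 and SMAD5, or to CAGAC, a form of the SMAD-binding element, and every other base is in lower case. The Nodal promoter lies at chr10:61417722-61418021 on the + strand, that of Id2 at chr12:25096043-25096342 on the - strand, and that of Id3 at chr4:136143572-136143871 on the + strand.
Nodal: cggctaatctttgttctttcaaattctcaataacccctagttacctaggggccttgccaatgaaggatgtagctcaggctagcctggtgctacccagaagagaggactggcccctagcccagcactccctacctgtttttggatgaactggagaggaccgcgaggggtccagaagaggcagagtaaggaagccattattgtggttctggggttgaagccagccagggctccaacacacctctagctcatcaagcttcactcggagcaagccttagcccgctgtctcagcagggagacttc
Id2: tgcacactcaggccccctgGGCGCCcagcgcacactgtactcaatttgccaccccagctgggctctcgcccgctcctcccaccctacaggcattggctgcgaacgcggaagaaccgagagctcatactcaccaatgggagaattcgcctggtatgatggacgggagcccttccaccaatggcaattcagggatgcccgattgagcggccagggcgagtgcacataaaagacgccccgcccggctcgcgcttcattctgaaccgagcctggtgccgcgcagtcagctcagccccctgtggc
Id3: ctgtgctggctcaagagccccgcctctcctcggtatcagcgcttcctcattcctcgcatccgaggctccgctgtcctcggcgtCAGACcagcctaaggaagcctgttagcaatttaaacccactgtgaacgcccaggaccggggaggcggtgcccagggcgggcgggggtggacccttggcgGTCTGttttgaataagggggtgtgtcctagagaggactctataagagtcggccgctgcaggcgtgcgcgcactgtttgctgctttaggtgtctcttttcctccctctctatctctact
Both strands were searched for GGCGCC and also for CAGAC and for AATNCACA, a FOXH1-like element, and GGCGCC reads the same on both strands. GGCGCC was found once in Id2, starting at position -231 relative to the start site, and once in Bmpr1a, at -198. CAGAC was found in Id3 at -167 and, on the opposite strand as GTCTG, at -68. None of the matches overlaps another. No member held AATNCACA, and neither Nodal nor Bmp4 held any of the 3 elements in this window. Of all 32851 promoters of this length, 11.9% hold GGCGCC, 49.6% hold CAGAC and 3.60% hold AATNCACA. The Id2 window is GC-rich (63.3% G or C, 21 CpG pairs), the Nodal window less so (54.0%, 5 CpG pairs), and that of Id3 lies between them (60.0%, 19 CpG pairs).

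As the mean of both alleles, the members spanned more than 2 orders of magnitude. Nodal was highest with 85.9 ± 3.64 RPKM (SD, n = 4 libraries), above 95.2% of all genes in the table. It was followed by Id1 with 63.8 ± 3.74 RPKM, Lefty1 with 50.2 ± 2.61 RPKM and Lefty2 with 30.8 ± 4.30 RPKM (SD, n = 4 each). The ligand, its 2 antagonists and 1 of the 3 Id genes thus occupied the top of the order. Skil, with 19.2 ± 1.12 RPKM, and Bmp4, with 17.9 ± 2.23 RPKM, came next and lay close together. Bmpr1a had 12.0 ± 0.929 RPKM, Id2 7.26 ± 1.05 RPKM and Smad7 2.93 ± 0.212 RPKM (SD, n = 4 each). Id3 was the lowest with 0.279 ± 0.0216 RPKM (SD, n = 4), below the median of all genes of 0.975 RPKM, and rested on 67 reads in all. The other 9 members had between 188 and 4988 reads behind every value.

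**Figure D1:**
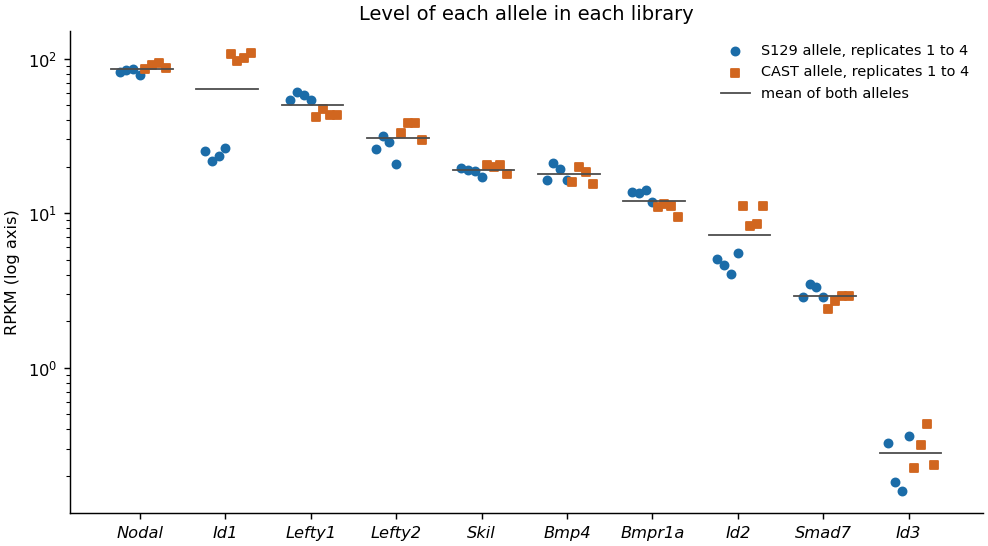
RPKM (log axis) of the S129 allele (circles) and the CAST allele (squares) of the 10 members in replicates 1 to 4, from left to right within each allele; the line is the mean of both alleles over the 4 libraries. The alleles of Id1 and Id2 stand apart, those of Nodal, Skil and Bmp4 lie side by side, and Id3 lies under 1 RPKM on both.

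For 8 of the 9 pairs of neighbours in this order, the ranges over the 4 libraries did not overlap, and the higher gene was higher in 4 of 4 libraries. The smallest p that a two-sided exact sign-flip permutation test over 4 libraries allows is 0.13, which each of these 8 pairs reached (0.141 after Benjamini-Hochberg adjustment over the 9 pairs), so none can pass 0.05. The exception was Skil above Bmp4, where the ranges overlapped, Skil was higher in 3 of 4 libraries, and the difference was 0.11 ± 0.16 on the log2(RPKM+0.1) scale (SD, n = 4; exact p = 0.375). The order at the top depends on which allele is read: by the higher allele of each gene, Nodal lay below Id1 by 0.21 ± 0.13 (Nodal minus Id1 = -0.21, log2 scale, SD, n = 4). By the S129 allele alone, the mean of Id1 was 24.2 ± 2.14 RPKM. That lay below the means of Lefty1 (56.7 ± 3.31 RPKM) and Lefty2 (26.8 ± 4.55 RPKM; SD, n = 4 each).

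The 2 alleles were compared within each library by limma on the log2(RPKM+0.1) difference, S129 minus CAST, so that a positive value means a higher S129 allele. The test covered the 13341 genes whose allele values summed to 1 RPKM or more, of which 9 were members, and Id3 fell below this limit. All 9 had at least 1 RPKM on each allele. With Benjamini-Hochberg adjustment over all genes tested, 6 of the 9 passed an adjusted p of 0.05, against 61.4% of the 12869 autosomal genes, a share near that of the members. Lefty1 and Bmpr1a were higher on S129, as were 28.9% of autosomal genes, and Nodal, Lefty2, Id1 and Id2 were higher on CAST, as were 32.5%. A difference of at least 1.5-fold beside the adjusted p was seen for 2 of the 9, against 25.0% of autosomal genes. These were Id1 and Id2, both higher on CAST, as were 12.8% of autosomal genes by this rule. The 4 S129 and the 4 CAST values did not overlap for Lefty1, Bmpr1a, Id1 and Id2, which is 4 of 9 members beside 43.6% of autosomal genes. The median size of the difference was 0.31 for the members tested (1.24-fold) and 0.29 for the autosomal genes tested (1.23-fold).

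**Figure D2:**
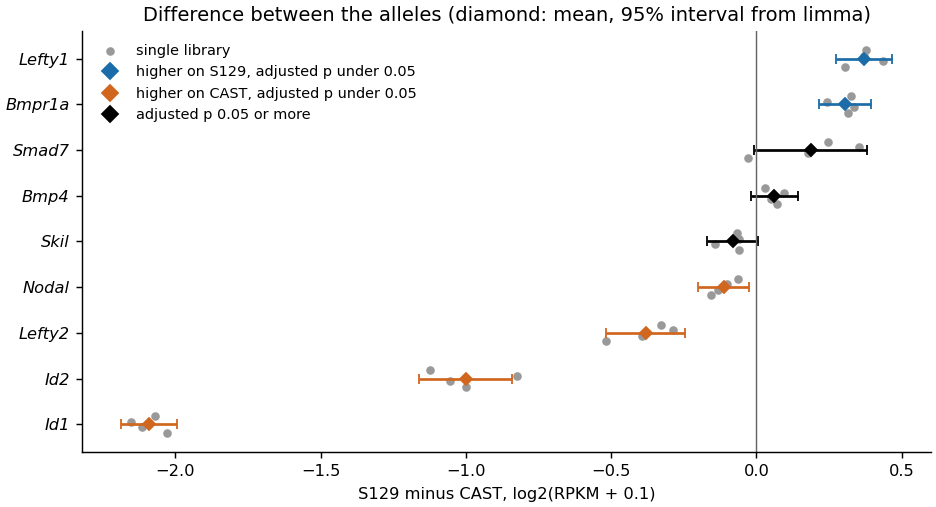
Difference between the alleles, S129 minus CAST on the log2(RPKM+0.1) scale, for the 9 members tested; grey points are the 4 libraries, diamonds the mean, and bars the 95% interval from limma. Id1 (-2.09) and Id2 (-1.0) lie far to the CAST side, Lefty1 (0.37) and Lefty2 (-0.38) lie on opposite sides of 0, and the intervals of Smad7, Bmp4 and Skil include 0.

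Nodal (ENSMUSG00000037171; mm10 chr10:61417972-61425338, + strand) had S129 values of 81.8, 84.9, 85.9 and 77.8 RPKM and CAST values of 85.5, 90.9, 94.1 and 86.6 RPKM in replicates 1 to 4. The CAST allele was higher in each library, but the ranges of the alleles overlapped. The difference was -0.11 (standard error 0.033, adjusted p = 0.0379 from limma), or 1.08-fold, smaller than that of most genes: 22.6% of autosomal genes had a smaller one. The call was lost when any of the 4 libraries was left out (adjusted p from 0.0688 to 0.130 from limma) and when the autosomal sums of the alleles were made equal (-0.0094, adjusted p = 0.866 from limma). The S129 share of its reads ran from 48.3% to 49.7%, beside a median of 50.5% for 18 protein-coding genes within 1 Mb.

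Lefty1 and Lefty2 lie side by side on chromosome 1 and differed in opposite directions. Lefty1 (ENSMUSG00000038793; chr1:180935022-180938400, + strand) had 54.2, 60.6, 58.2 and 53.7 RPKM on S129 and 41.8, 46.9, 43.0 and 43.5 RPKM on CAST. Its S129 allele was above its CAST allele in every library without overlap, with a difference of 0.37 (standard error 0.036, adjusted p = 0.00122 from limma), or 1.29-fold. Lefty2 (ENSMUSG00000066652; chr1:180893108-180899103, + strand) had 26.2, 31.4, 29.0 and 20.8 RPKM on S129 and 32.9, 38.4, 38.0 and 29.8 RPKM on CAST. Here the CAST allele was higher in 4 of 4 libraries, with a difference of -0.38 (standard error 0.050, adjusted p = 0.00332 from limma), or 1.30-fold. The ranges of the 2 alleles of Lefty2 overlapped, replicates 1 and 4 were low on both, and without the pairing of alleles by library the adjusted p of Lefty2 was 0.0522 from limma.

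These 2 genes are related copies, and how reads that match both were counted is not given in the sources used here, so their values are uncertain to that extent. Over 1161 aligned bases their transcripts, of 1620 and 2473 bases, are 91.3% identical. The longest identical run is 140 bases, shorter than an untrimmed read of 150 bp. Reads were trimmed before alignment, so this does not show that every read can be told apart. The Id transcripts are more distant from each other, with 69.0% to 81.7% identity over the parts that align and no identical run above 15 bases. The S129 share was 57.4% for Lefty1 and 44.7% for Lefty2 over all libraries. Among 16 neighbours within 1 Mb of each gene, shares ran up to 63.4%. The share of Lefty1 was above that of 11 of its 16 neighbours, and that of Lefty2 was below all 16 of its own, Lefty1 included, although the lowest of these lay close by at 45.0%.

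Both intracellular brakes had differences that did not pass the test. Smad7 (ENSMUSG00000025880; chr18:75367529-75395935, + strand), the inhibitory SMAD that blocks the type I receptors, had 2.88, 3.46, 3.31 and 2.86 RPKM on S129 and 2.42, 2.69, 2.92 and 2.92 RPKM on CAST. S129 was higher in 3 of 4 libraries, all but replicate 4, with a difference of 0.19 (95% interval -0.0074 to 0.38, adjusted p = 0.0825 from limma). Without replicate 4, the difference was 0.26 and passed (adjusted p = 0.0224 from limma). In replicate 4, 213 S129 reads and 209 CAST reads gave a share of 50.5%, with an exact 95% binomial interval from 45.6% to 55.3% that covers counting error only, since reads are not independent molecules.

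Skil (ENSMUSG00000027660; chr3:31095058-31122577, + strand), which codes for SnoN, a corepressor of SMAD2, SMAD3 and SMAD4, had 19.6, 19.1, 18.6 and 17.2 RPKM on S129 and 20.5, 19.9, 20.5 and 17.9 RPKM on CAST. By RPKM, CAST was higher in 4 of 4 libraries, with a small difference of -0.08 (95% interval -0.17 to 0.0054, adjusted p = 0.0875 from limma). By reads, the S129 share of Skil ran from 48.5% to 50.0%, and replicate 2 had 3220 S129 reads and 3218 CAST reads. The region around Skil was not balanced: the 8 neighbours within 1 Mb had a median S129 share of 61.7%, while chromosome 3 as a whole had a median of 38.2% over 531 genes. The sign of the Skil value depends on the reference taken. With the median of chromosome 3 subtracted, Skil was at 0.64 (adjusted p = 0.000277 from limma), with the median of the genes within 10 Mb subtracted it was at -0.14 (adjusted p = 0.0304 from limma), and with equal autosomal sums it was at 0.020.

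Bmp4 (ENSMUSG00000021835; chr14:46383520-46390669, - strand), the ligand of the BMP branch, had 16.3, 21.2, 19.2 and 16.3 RPKM on S129 and 15.9, 19.8, 18.6 and 15.5 RPKM on CAST. S129 was higher in 4 of 4 libraries, by 0.06 (95% interval -0.020 to 0.14, adjusted p = 0.144 from limma), a size that only 13.0% of autosomal genes fell below. It passed under 3 other settings, with equal autosomal sums (0.16, adjusted p = 0.0141), with the medians within 10 Mb subtracted (0.19, adjusted p = 0.0101) and for whole reads left without scaling to depth (0.12, adjusted p = 0.0387, each from limma). The genes Gm15217 and Gm15222 overlap Bmp4 on the opposite strand. The libraries are stranded, but the strand setting of the counting is not given in the sources used here, so reads of these genes may be among those of Bmp4.

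Bmpr1a (ENSMUSG00000021796; chr14:34410734-34503341, - strand), the type I receptor through which BMP4 acts, had 13.7, 13.5, 14.1 and 11.8 RPKM on S129 and 10.9, 11.4, 11.1 and 9.45 RPKM on CAST. Each S129 value was above all 4 CAST values, and replicate 4 was lowest on both alleles. The difference was 0.31 (standard error 0.033, adjusted p = 0.00181 from limma), or 1.24-fold, with S129 higher in 4 of 4 libraries. Its S129 share of 56.2% compares with a median of 51.5% for 8 neighbours, 6 of which had a lower share. An antisense gene, Gm17110, overlaps Bmpr1a near its start.

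Id1 had the largest difference of the members. Id1 (ENSMUSG00000042745; chr2:152736251-152737410, + strand) had 25.3, 21.6, 23.4 and 26.5 RPKM on S129 and 107, 96.6, 102 and 108 RPKM on CAST. Every CAST value was more than 3 times every S129 value. The difference was -2.09 (standard error 0.036, 95% interval -2.19 to -1.99, adjusted p = 7.42e-06 from limma), a 4.26-fold higher CAST allele in 4 of 4 libraries, and 96.8% of autosomal genes had a smaller difference. The S129 share of Id1 reads lay between 18.9% and 20.3% in the libraries and rested on 11101 reads. None of the 25 neighbours within 1 Mb had so low a share. Theirs ran from 40.1% to 60.0% around a median of 49.8%, and 0.58% of the 862 genes measured on chromosome 2 had a lower share than Id1.

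Id2 followed in the same direction. Id2 (ENSMUSG00000020644; chr12:25093799-25097140, - strand) had 5.03, 4.63, 4.03 and 5.49 RPKM on S129 and 11.1, 8.27, 8.49 and 11.1 RPKM on CAST. The alleles did not overlap, and replicates 1 and 4 were the highest on both. The difference was -1.0 (standard error 0.060, 95% interval -1.16 to -0.84, adjusted p = 0.000284 from limma), a 2.00-fold higher CAST allele in 4 of 4 libraries, and 87.1% of autosomal genes had a smaller difference. The S129 share ran from 32.0% to 36.9%, below all 6 neighbours within 1 Mb, whose shares ran from 40.7% to 57.0%. On chromosome 12, 4.75% of the genes measured had a lower share.

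Id3 (ENSMUSG00000007872; chr4:136143497-136145755, + strand) was too low for a comparison of its alleles. Its S129 values were 0.326, 0.183, 0.159 and 0.360 RPKM, and its CAST values were 0.225, 0.318, 0.431 and 0.234 RPKM. Each value stands for 5 to 13 reads, and the higher allele changed from library to library. The share of 60.0% in replicate 1 has an exact 95% binomial interval from 36.1% to 80.9%, and that of 27.8% in replicate 3 one from 9.69% to 53.5%. Both intervals include equal shares, so a difference between the alleles was not detectable at this depth. With no filter on low values, the difference was -0.19 (adjusted p = 0.663 from limma). Since reads without a SNP do not count, the low level of Id3 does not show how much Id3 RNA the cells made.

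**Figure D3:**
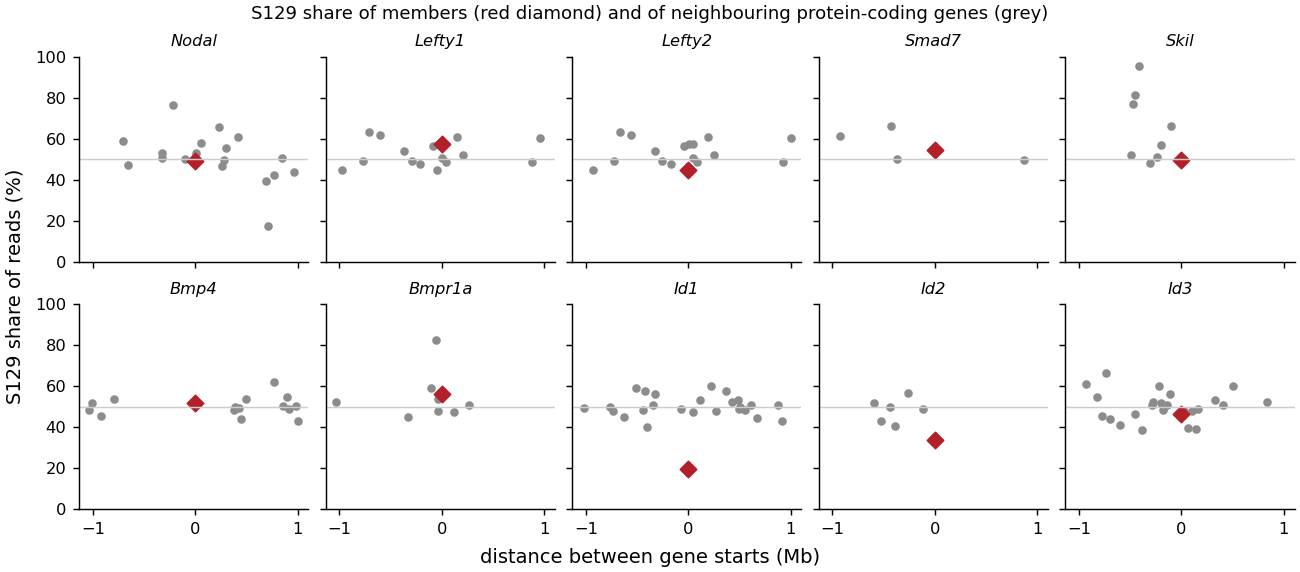
S129 share of reads (%) of each member (diamond) and of the protein-coding genes within 1 Mb (grey points) against the distance between gene starts in Mb; the horizontal line is at 50%. Id1 at 19.5% and Id2 at 33.8% lie below all 25 and all 6 of their neighbours, while the neighbours of Skil reach 95.7%.

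In the RPKM as given, the libraries differed little in the level of most members. The SD of the log2(RPKM+0.1) level over the 4 libraries was 0.061 for Nodal, smaller than for all but 7.9% of the genes tested, whose median SD was 0.14. Lefty2 (0.21), Id2 (0.21) and Bmp4 (0.18) varied more than this median, with a ratio of the highest to the lowest library of 1.38, 1.32 and 1.29. These spreads depend on the scaling of the libraries. With every library rescaled to the same sum, the SD of the level rose from 3.64 to 7.46 RPKM for Nodal and from 2.61 to 4.77 RPKM for Lefty1. It also rose for Lefty2, Smad7, Skil, Bmp4 and Bmpr1a. The SD fell from 3.74 to 1.44 RPKM for Id1 and from 1.05 to 0.723 RPKM for Id2, and it fell slightly for Id3. For 6 of the 9 members tested, namely Nodal, Lefty1, Lefty2, Smad7, Bmp4 and Bmpr1a, replicates 2 and 3 were both above replicates 1 and 4, and for Id1 and Id2 it was the reverse. Across all genes tested, 50.8% showed the first pattern and 11.4% the second, so the first is common in this table. The summed level of the feeder fibroblast list was 571 and 585 RPKM in replicates 2 and 3 and 492 and 523 RPKM in replicates 1 and 4, and that of the pluripotency list was 7979 and 7698 RPKM against 8902 and 9330 RPKM. The neural list (85.5 and 84.9 against 72.1 and 68.5 RPKM), the primitive streak and mesoderm list (6.94 and 6.92 against 5.84 and 6.05 RPKM) and the primitive endoderm list (6.78 and 6.80 against 6.67 and 5.85 RPKM) were also higher in replicates 2 and 3. A few genes make up most of the pluripotency, neural and feeder fibroblast sums. As means over the libraries, Dppa5a had 7111 RPKM, Nes 76.2 RPKM, Acta2 340 RPKM and Col1a2 166 RPKM. The part of these cell type markers in the levels of the members was not tested.

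**Figure D4:**
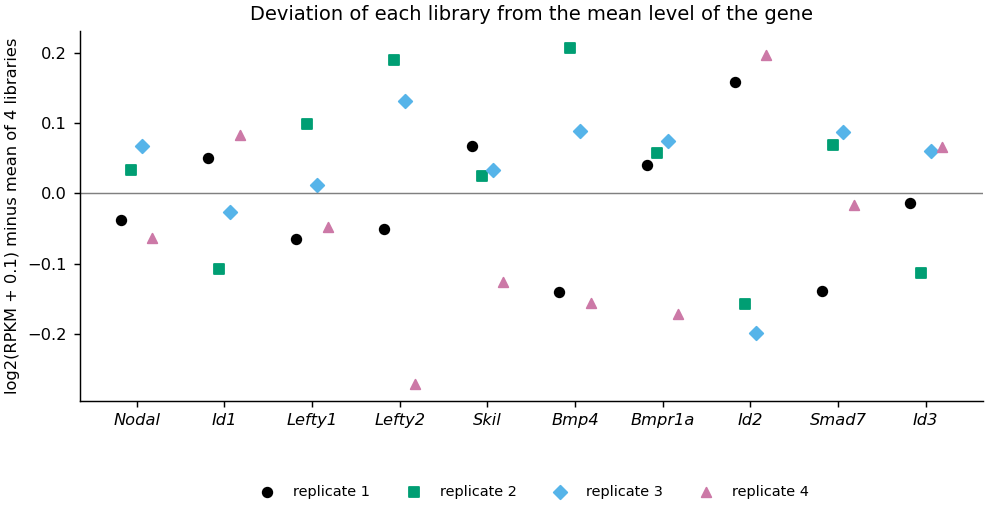
Deviation of each of the 4 libraries from the mean log2(RPKM+0.1) level of the gene, members in the order of their level. Replicates 2 and 3 lie above replicates 1 and 4 for Nodal, both Lefty genes, Bmp4, Bmpr1a and Smad7 and below them for Id1 and Id2, and replicate 4 of Lefty2 lies lowest.

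The other genes of both pathways were read from 13 lists by role, which hold 74 genes, the 10 members among them. Of these, 73 were in the table, all but Cfc1b, 47 had at least 1 RPKM, and 57 were tested for a difference between the alleles. At an adjusted p under 0.05 from limma, 28 of the 57 were called, against 61.4% of autosomal genes. Of these, 15 were higher on S129 and 13 on CAST, and the split became 20 to 9 with equal autosomal sums. At 1.5-fold or more, 12 passed, a rule that 25.0% of autosomal genes met. The median size of the difference over the 57 genes was 0.28, or 1.21-fold, beside 0.29 for autosomal genes.

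On the Nodal side, the co-receptor gene Tdgf1, which codes for Cripto, had 488 ± 57.3 RPKM, and the ligand gene Gdf3 had 91.4 ± 1.85 RPKM (SD, n = 4 each). Both were higher on S129, by 0.39 for Tdgf1 (adjusted p = 0.000655 from limma) and by 0.30 for Gdf3 (adjusted p = 0.00111 from limma), whereas Nodal leaned to CAST. Gdf1 was listed at 0 in every library. Receptor genes had low values: Tgfbr3, a co-receptor of the wider family, had 2.79 RPKM, Acvr2b 2.46 RPKM and Tgfbr1 1.83 RPKM. Only reads over a SNP count, so these values do not show how much receptor RNA the cells made. Tgfbr3 was 2.30-fold higher on S129 (adjusted p = 0.00383 from limma). Fst, which codes for the activin-binding follistatin, was the third antagonist in level at 7.14 RPKM, below both Lefty genes. Of the convertases that cleave the Nodal precursor, Pcsk6 had 54.4 ± 5.49 RPKM (SD, n = 4) and was 1.58-fold higher on S129 (adjusted p = 0.00327 from limma), while Furin had 1.61 RPKM.

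Among the SMAD2/3 effectors and cofactors, Tgif1 (32.4 RPKM), Tgif2 (27.1 RPKM) and Smad2 (22.1 RPKM) were higher than Skil. Tgif2, a corepressor like Skil, was 1.54-fold higher on S129 (adjusted p = 0.000558 from limma), and Trim33, a ubiquitin ligase that binds SMADs, was 1.88-fold higher on CAST (adjusted p = 0.000212 from limma). Trim33 lies, like Skil, on chromosome 3, where the median S129 share over 531 genes was 38.2%. Of the negative regulators, Ppm1a (64.4 RPKM), Pmepa1 (22.7 RPKM) and Smurf1 (7.78 RPKM) were above Smad7, and Pmepa1 was 1.72-fold higher on S129 (adjusted p = 0.000311 from limma). Of the Nodal targets, Eomes had 2.92 RPKM and Gsc 0.847 RPKM.

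On the BMP side, Bmp4 was the highest ligand gene, followed by Bmp1 (6.43 RPKM), which codes for a protease despite its name, and Bmp7 (2.27 RPKM). Bmp8a, at 0.865 RPKM, was 1.53-fold higher on CAST (adjusted p = 0.0356 from limma). Bmp8b, also on chromosome 4 and at 1.28 RPKM, went the other way, 1.49-fold higher on S129 (adjusted p = 0.0074 from limma). How reads that match more than a single gene were counted is not given in the sources used here. Bmp6 was listed at 0 in every library. The type II receptor gene Bmpr2 had 53.6 ± 4.49 RPKM (SD, n = 4), above Bmpr1a, and Acvr1 had 1.36 RPKM. Acvrl1, a type I receptor known from endothelium, had 0.903 RPKM and was 2.47-fold higher on CAST (adjusted p = 0.00188 from limma). The effectors Smad5 and Smad1 had 9.64 and 8.10 RPKM, and Smad9, at 0.644 RPKM, was 2.20-fold higher on CAST (adjusted p = 0.00856 from limma) and also lies on chromosome 3, with its median S129 share of 38.2%. Of the antagonists, Fstl1 (22.0 RPKM) and Twsg1 (17.7 RPKM) led, followed by Chrd (0.929 RPKM), and Fstl1 was 1.61-fold higher on S129 (adjusted p = 0.000350 from limma).

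Id1 and Id2 were the highest BMP targets, followed by Msx2 (1.66 RPKM), which was 1.88-fold higher on S129 (adjusted p = 0.00586 from limma). Id4 (0.459 RPKM) and Msx1 (0.160 RPKM) were, like Id3, too low for the test. All 3 targets that were tested passed at 1.5-fold or more, against 25.0% of autosomal genes, Id1 and Id2 toward CAST and Msx2 toward S129. The E protein genes, whose products Id proteins bind, had 60.7 RPKM for Tcf4, 15.2 RPKM for Tcf3 and 3.59 RPKM for Tcf12. None of these 3 was called, against 61.4% of autosomal genes, with differences of -0.11, 0.0027 and -0.046 (adjusted p of 0.367, 0.970 and 0.494 from limma), and at an unadjusted p 0 of the 3 were under 0.05 either.

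**Figure D5:**
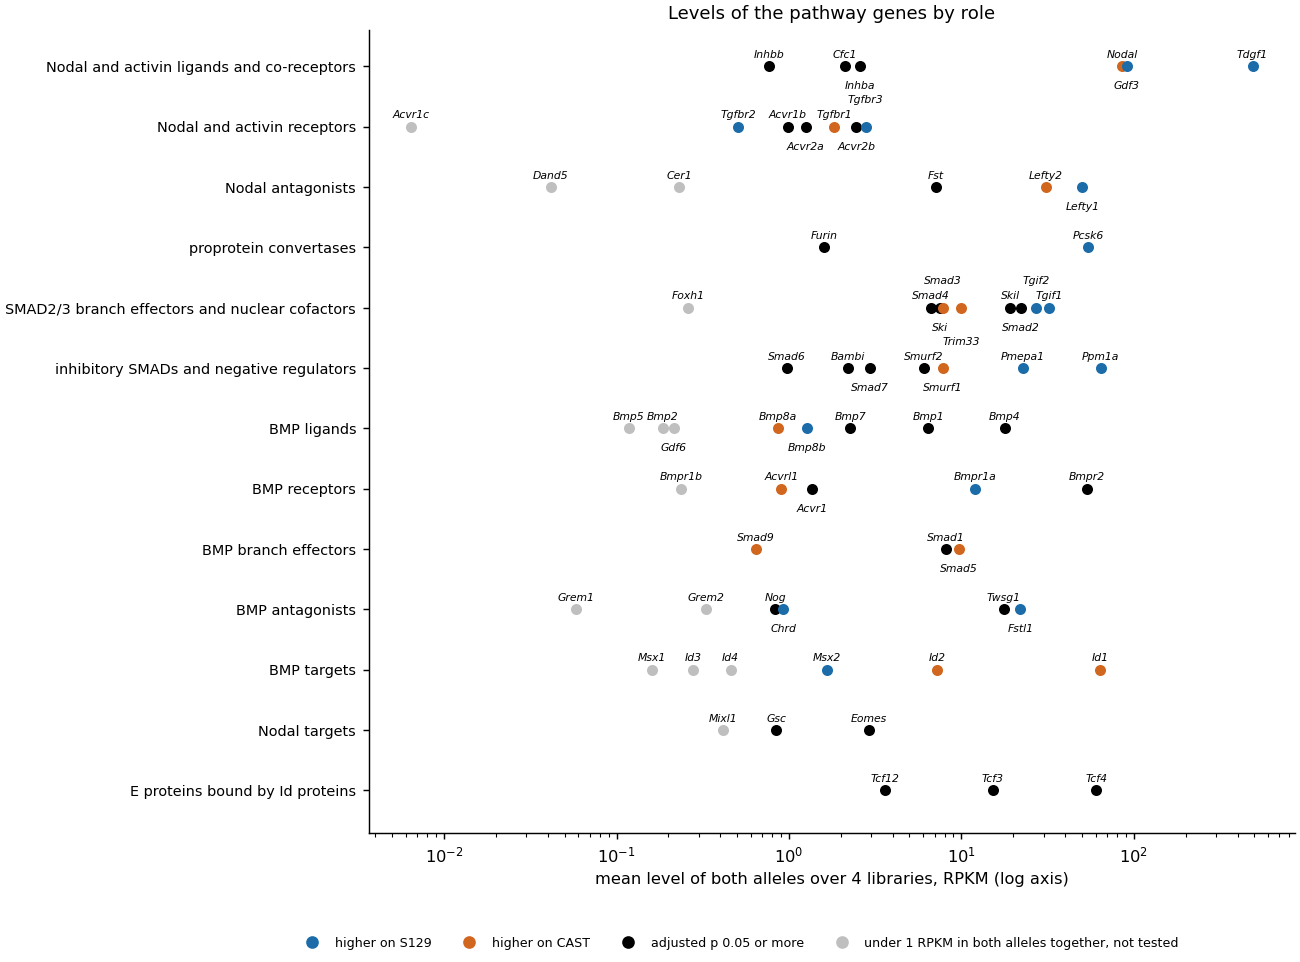
Mean level of both alleles over 4 libraries in RPKM (log axis) of pathway genes listed above 0, one row for each role; the colour gives the higher allele where adjusted p was under 0.05. Nodal, Tdgf1 and Gdf3 lead the ligands and co-receptors, both Lefty genes lead the antagonists, and Id1 and Id2 lead the BMP targets.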

How the data were processed

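Gene expression was measured in 4 libraries of polyA RNA. Per the paper's methods, reads were checked with FastQC, cleared of ribosomal RNA with SortMeRNA, trimmed with Trimmomatic (0.40 in the submitters' processing notes), aligned with STAR to mm10 with strain SNPs masked, and assigned by SNPsplit to S129 or CAST. The authors deposited RPKM per gene, allele and library, with an average over libraries and its log10 value, which were not used. The counting program and annotation are not given in the sources used here. The 8 allele columns were matched to libraries by allele and number.

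Genes were matched by identifier to GENCODE M21 in mm10 (23995 of 24026). Whole reads were recovered for 94.5% of the 20243 genes above 0, within a tolerance of 0.02 reads. Poisson and binomial intervals are exact and cover counting error only. Alleles were compared with limma 3.58.1 (R 4.3.3) on within-library differences of log2(RPKM+0.1), which understates differences of low genes, with Benjamini-Hochberg adjustment over genes whose allele values summed to 1 RPKM or more. Both columns of a number are reads of one library, hence the pairing. Over 11543 genes, columns of one number deviated together with correlations of 0.146 to 0.242, against -0.196 to 0.156 for different numbers. The fit was tested on simulated data. Neighbours were protein-coding genes within 1 Mb with at least 400 reads.

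Alternatives were other pseudocounts and filters, no pairing, a variance trend, equal autosomal sums, chromosome medians subtracted, and each library left out. For levels, they were also other summaries and lengths, and every library rescaled to the same sum. Whole reads without scaling to depth, medians within 10 Mb and the count of library patterns were added after seeing the data. The members, lists and tests were chosen with earlier results of these data known. Genes given with values are the members, the 3 highest of each list and any called at 1.5-fold or more. Gdf1, Bmp6, Bmp8b, Id4, Msx1, Acta2, Col1a1, Col1a2, Dcn, Postn, Lum, Nes and Dppa5a were named after their values were seen. The values of 1 listed gene are not reported here.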

Additional observations from a re-analysis of the deposited data

Results flagged for a closer look

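Dixon's criterion for 4 values was applied to 20 quantities, the level and the allele difference of each member, and 2 passed it, while chance passes about 1 in 20. The level of Bmpr1a was 10.6 RPKM in replicate 4, below the other libraries, which lay between 12.3 and 12.6 RPKM. The allele difference of Skil was -0.14 in replicate 3, while the other libraries lay between -0.067 and -0.059.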

How the results depend on the processing

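Of the 9 members tested, 6 were called, and the alternatives gave 4 to 7: 4 without pairing the alleles by library (no replicate block), 5 with no filter on low values, 7 with equal autosomal sums, with either set of regional medians subtracted or with whole reads, and 5 to 6 with a library left out. Id1, Id2, Lefty1 and Bmpr1a were called in the same direction under every alternative run, and so was Lefty2 except without the pairing (adjusted p = 0.0522 from limma). Nodal was at -0.0094 and not called with equal autosomal sums (adjusted p = 0.866 from limma). It was also not called without the pairing (adjusted p = 0.222), with no filter (0.0933), with whole reads (0.210), with medians within 10 Mb subtracted (0.0794) or with any library left out. Skil changed sign to 0.020 with equal autosomal sums and to 0.64 with the median of its chromosome subtracted, where the alternatives themselves shift every autosomal gene and every gene of chromosome 3. Smad7 was called with equal autosomal sums (adjusted p = 0.0331) and with whole reads (0.0474). Without the pairing, 6425 genes in place of 8369 and 21 pathway genes in place of 28 were called. Equal autosomal sums moved the median autosomal difference by 0.10. Among autosomal genes, they moved the split of calls to 4663 higher on S129 and 3069 higher on CAST, from 3721 and 4180. The median level of the 10 members was 18.5 RPKM and fell to 14.7 RPKM with the length of all annotated exons, where Skil lay below Bmp4 (-0.33, log2). By the higher allele, Nodal lay below Id1 (-0.21), and by the S129 allele alone, Id1 lay below both Lefty genes. Depth limits Id3, with 5 to 13 reads per value.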
